A study of Mus musculus with 6 samples.

Results

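Adora2a encodes an adenosine receptor, and the CTBP2 sites around this gene were examined in mouse bone marrow-derived macrophages given lipopolysaccharide (LPS) or vehicle. The sites were taken by position alone, as the rows on chromosome 10 with a centre between positions 75100000 and 75210000, where the gene lies at 75.15 to 75.17 Mb. There were 15 such sites among 62236 in the deposited table. They are numbered 1 to 15 here, in order along the chromosome. The gene was chosen because a site in it stood among the strongest gains of the LPS against vehicle comparison, so the differences in this window are given as a description. No p-value is printed for them, and counts of calls stand only beside the share over all sites.

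Chromatin fixed with DSG and formaldehyde was immunoprecipitated with an antibody to CTBP2 and sequenced, which gave 6 libraries. The 3 LPS libraries came from cells given LPS, a component of the outer membrane of bacteria, at 100 ng/mL for 3 h, and the 3 vehicle libraries from cells given PBS. All cells were grown from the marrow of wildtype male C57BL6/N mice aged 6 to 12 weeks, with 6 days of differentiation in medium containing L929 supernatant. The labels number the replicates without naming an animal or culture for each, so p-values given for other genes rest on a spread between libraries that could be technical alone. Input chromatin was not analysed here.

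Adenosine forms outside cells when released ATP is broken down by surface enzymes, and it accumulates in inflamed tissue. The receptor encoded by Adora2a couples to the stimulatory G protein and raises cyclic AMP, and in macrophages its engagement is known to dampen the production of inflammatory cytokines. CTBP2 is a co-repressor without a DNA-binding domain of its own that is brought to chromatin by transcription factors. Its signal at a site does not measure expression of the gene there.

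Taking the smallest step of each library column as 1 read, a reading that the labels do not state, depth was 3243258 to 4553179 reads in sites, and the median site held 39 to 55 reads. The deposited library medians ranged from 35.5 to 73.0, and each column was scaled by its median before any comparison. Over all sites, 10033 were called higher and 8408 lower in LPS by limma at an adjusted p under 0.05, so 54.4% of calls were higher. On the values as deposited, 1178 were higher and 30 lower, or 97.5% higher. Of 6 macrophage marker genes, 6 had a CTBP2 site within 10 kb of the start. So did 2 of 4 neutrophil (not Ly6g and Mpo), 2 of 3 placed lymphocyte (not Ncr1) and 1 of 1 placed stromal marker genes. The lists held 4 lymphocyte and 2 stromal markers, not all of which could be placed. Of all 18173 placed genes, 12605 had a site within 10 kb.

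The table itself does not connect these sites with Adora2a. It names Bcr for 14 of them and Specc1l for site 15, because its gene positions follow another genome build than its site positions. Gene starts were therefore placed on the site coordinates by an offset measured within the table. At that offset site 8 was the site nearest to the Adora2a start, 0.98 kb inside the gene, and sites 8 to 11 lay within the 17.9 kb of the gene. Sites 1 to 7 lay 43.5 to 14.7 kb upstream of the start, where the placed body of the neighbouring gene Specc1l runs. Sites 12 to 15 lay 1.56 to 29.9 kb past the gene's end. The 7 sites that the table does name Adora2a lay 168 to 249 kb downstream of the placed start, and their log2 folds were -0.37 to 0.69. Site coordinates are read as GRCm39, and whether a site is exonic or intronic was not determined here.

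CTBP2 signal was higher in LPS at every site from the Adora2a start to 6.04 kb past its end, and was not called at the sites on either side. Of the 15 sites, 7 were called higher, 0 lower, and 8 were not called. Over all sites, 16.1% were called higher and 13.5% lower. The 7 sites were numbers 8 to 14, which are consecutive. All 4 sites in the gene were called, as were 3 of the 4 downstream and 0 of the 7 upstream. The median log2 fold of the 15 was 0.49, against -0.02 over all sites. Since the gene was picked from this contrast, nothing is read from these counts.

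**Figure D1:**
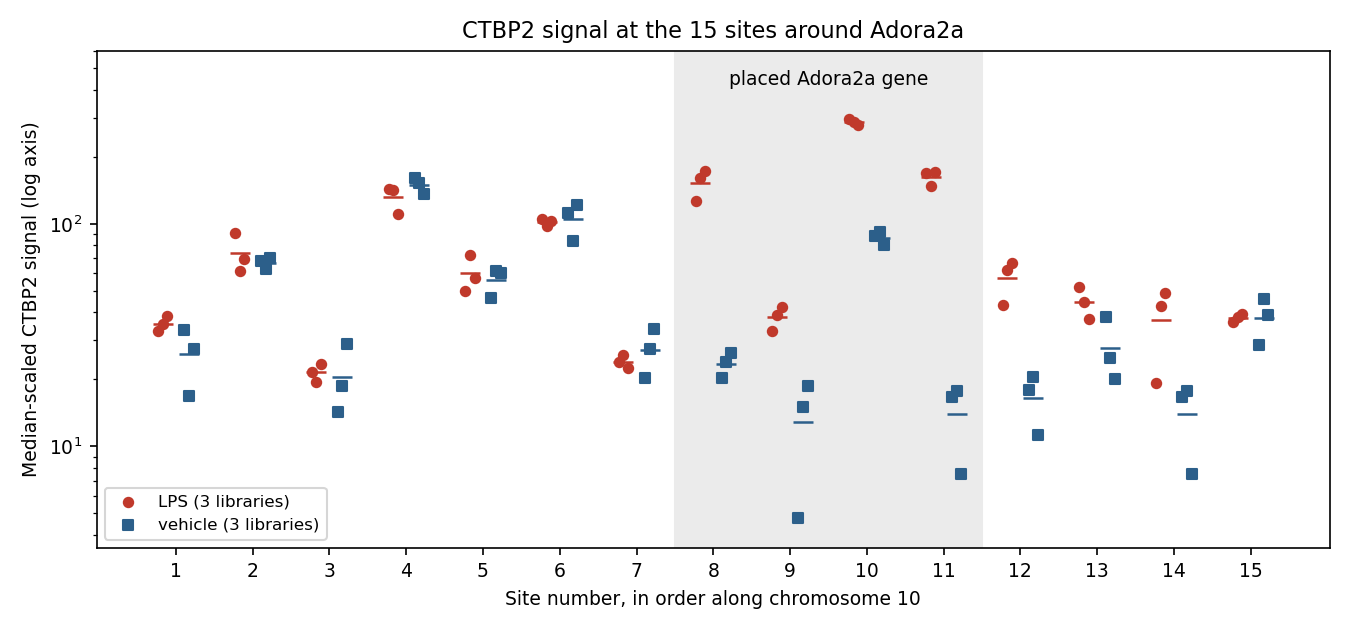
Median-scaled CTBP2 signal (log axis) at the 15 sites around Adora2a, numbered along chromosome 10, with LPS libraries as circles left of vehicle libraries as squares, and group means as lines. The shaded sites 8 to 11 lie in the placed gene and show no overlap, with LPS above vehicle in each.

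Site 11 had the largest log2 fold of the window, and site 10 the largest difference in scaled signal. Site 11 lies at chr10:75165705-75166705, 13.5 kb into the gene. Its scaled signal was 169, 148 and 172 in LPS replicates 1, 2 and 3, against 16.7, 17.7 and 7.50 in vehicle replicates 1, 2 and 3. The lowest LPS library thus stood well above the highest vehicle library. The means were 163 ± 12.9 in LPS and 14.0 ± 5.63 in vehicle (SD, n = 3 each), a log2 fold of 3.53 (SE 0.23). By log2 fold this site ranked 7 among the 62236 sites and 1 on chromosome 10. Among all sites, its level stood at the 96.2nd percentile in LPS and at the 0.511th in vehicle. The reads behind these values were 149, 167 and 183 in LPS and 14, 20 and 6 in vehicle, so the vehicle level rests on few reads. A larger share of cells with CTBP2 at a site and more CTBP2 there in each cell cannot be told apart in such bulk libraries.

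Site 8, at chr10:75153187-75154187, is the one nearest to the gene's start. It had 127, 161 and 173 in the LPS libraries, against 20.2, 23.9 and 26.3 in the vehicle libraries. The groups did not overlap and the means were 153 ± 23.6 in LPS and 23.5 ± 3.05 in vehicle (SD, n = 3 each). The log2 fold was 2.65 (SE 0.18), which ranked 54 among all sites and 4 on chromosome 10. Its level stood at the 95.3rd percentile in LPS and at the 8.42nd in vehicle.

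Site 10, at chr10:75162011-75163011, carried the highest signal of the window in LPS and, unlike the other sites of the gene, was already well occupied in vehicle. Its values were 296, 288 and 280 in the LPS libraries, against 88.1, 92.2 and 80.1 in the vehicle libraries. The spread within each group was small beside the distance between them. The means were 288 ± 8.30 in LPS and 86.8 ± 6.19 in vehicle (SD, n = 3 each), a log2 fold of 1.72 (SE 0.13). Among all sites it stood at the 99.7th percentile in LPS and at the 78.7th in vehicle. It had 261, 325 and 298 reads in LPS and 74, 104 and 64 in vehicle, the deepest counts among the 4 sites of the gene.

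Site 9, at chr10:75157839-75158839 between sites 8 and 10, was low in both groups. It had 32.9, 39.0 and 42.2 in the LPS libraries, against 4.75, 15.1 and 18.8 in the vehicle libraries, without overlap. The log2 fold was 1.67 (SE 0.38). The value of vehicle replicate 1 rests on 4 reads, and without that library the log2 fold was 1.13. In the authors' deposited table this site had a log2 fold of 0.80.

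Past the end of the gene, 3 sites were called and 1 was not. Site 12, at chr10:75171685-75172685 and 1.56 kb past the end, had 43.1, 62.1 and 66.6 in the LPS libraries, against 17.8, 20.4 and 11.3 in the vehicle libraries. Its log2 fold was 1.75 (SE 0.25), with no overlap of the groups. Site 14, 6.04 kb past the end, had 19.3, 42.6 and 48.8 in LPS, against 16.7, 17.7 and 7.50 in vehicle. Here LPS replicate 1 lay close to the vehicle libraries. The log2 fold was 1.32 (SE 0.37), and the site was not called without LPS replicate 2 (1.17) or LPS replicate 3 (1.07). Site 13, between them, had 52.2, 44.4 and 37.5 in LPS, against 38.1, 24.8 and 20.0 in vehicle. Its groups overlapped slightly, its log2 fold was 0.71 (SE 0.23), and it was not called without LPS replicate 1 (0.60), LPS replicate 2 (0.71), vehicle replicate 2 (0.66) or vehicle replicate 3 (0.51). At 6 of the 15 sites the lowest LPS value exceeded the highest vehicle value, as it did at 21.6% of sites in the whole table. With LPS replicate 1, 2 or 3 left out, limma called 13.6%, 12.4% or 13.5% of the table higher, and with vehicle replicate 1, 2 or 3 left out 14.1%, 14.3% or 16.2%.

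The 7 upstream sites showed no such difference. Their log2 folds ran from -0.19 to 0.49, the groups overlapped at each, and none was called. They were not empty. Site 4, at chr10:75118200-75119200, had 143, 142 and 111 in the LPS libraries, against 161, 153 and 136 in the vehicle libraries, and its vehicle level was at the 95.5th percentile of all sites. Site 6, 16.9 kb upstream of the Adora2a start, had 106, 97.6 and 103 in LPS, against 112, 83.4 and 121 in vehicle. Site 15, the last of the window, had means of 38.0 ± 1.56 in LPS and 37.8 ± 8.82 in vehicle (SD, n = 3 each).

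**Figure D2:**
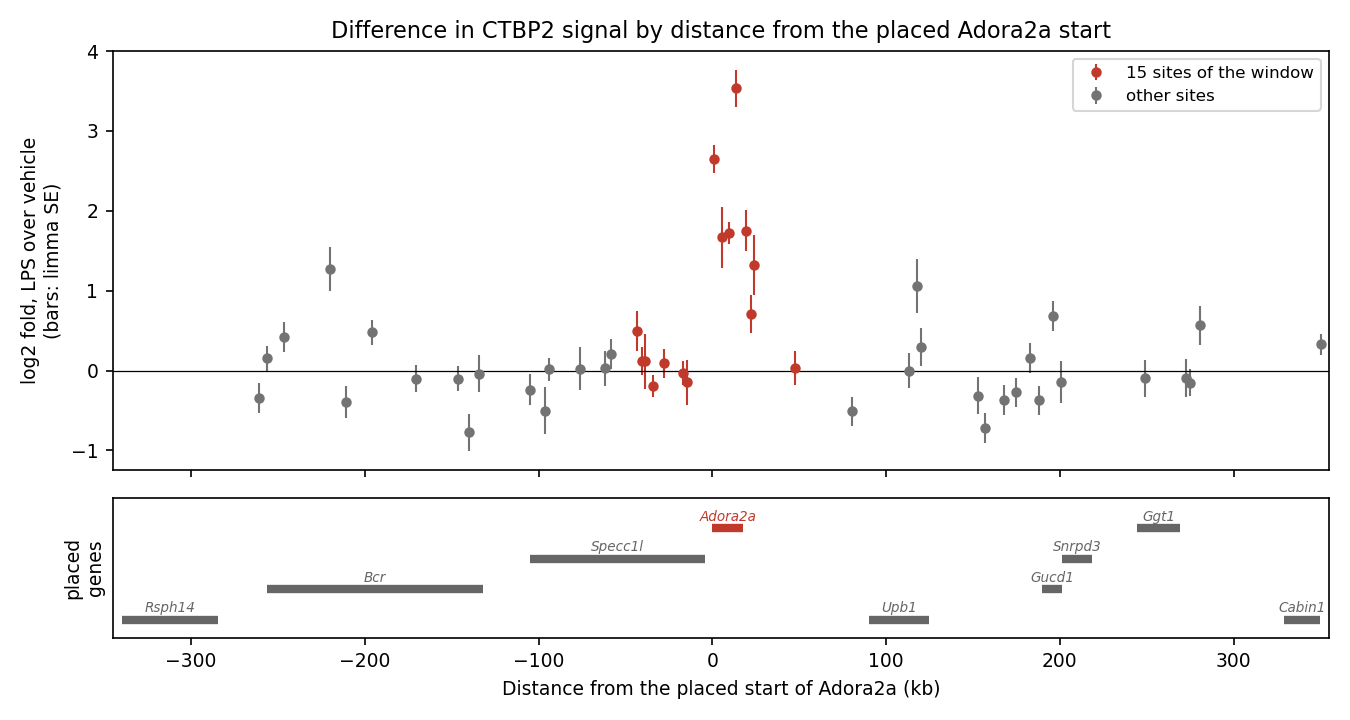
Log2 fold of CTBP2 signal, LPS over vehicle, with limma standard errors, against the distance in kb from the placed Adora2a start. Red points are the 15 sites of the window and grey points the other sites, and bars below are RefSeq protein-coding genes whose strand was known, placed at the measured offset. The points above 1.3 all lie between the Adora2a start and 24.0 kb past it.

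Because each library was measured at all 15 sites, the division of signal within the window does not change when a library is scaled by a single factor. The 4 sites in the gene held 50.3%, 49.8% and 51.9% of the window's signal in LPS replicates 1, 2 and 3, against 18.9%, 21.8% and 19.3% in vehicle replicates 1, 2 and 3. The shares varied little between libraries of a group. The 7 upstream sites held 37.6%, 35.6% and 33.1% in the LPS libraries, against 66.3%, 62.2% and 69.5% in the vehicle libraries. The 4 downstream sites held 13.9% ± 1.56 in LPS and 14.0% ± 2.45 in vehicle (SD, n = 3 each). In summed scaled signal, the sites in the gene reached 642 ± 21.2 in LPS and 137 ± 10.4 in vehicle (SD, n = 3 each), a ratio of 4.69. The upstream sites summed to 449 ± 21.7 in LPS and 452 ± 27.0 in vehicle, a ratio of 0.993.

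**Figure D3:**
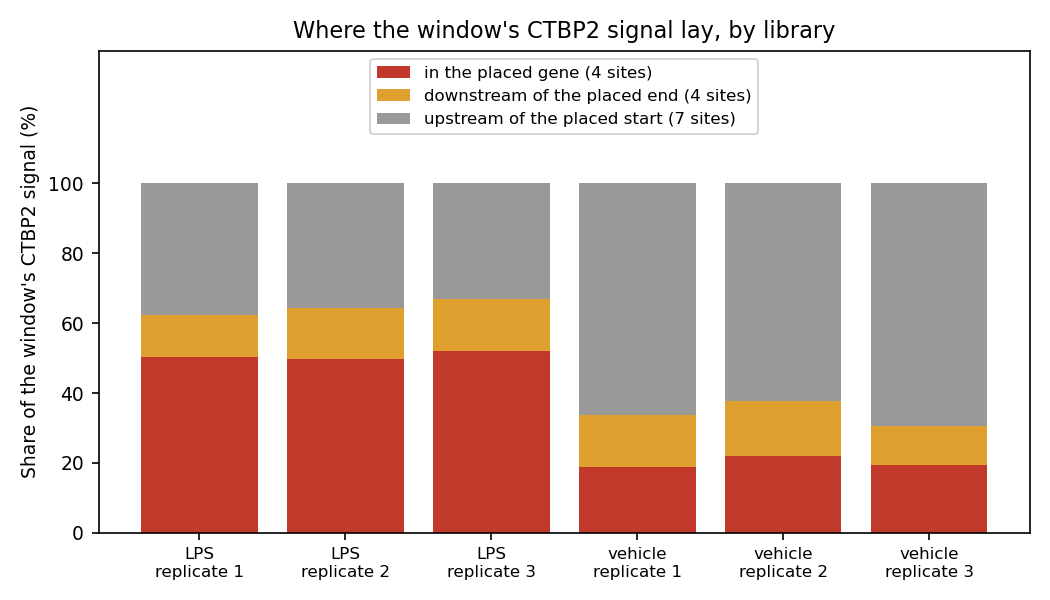
Share of the window's summed CTBP2 signal (percent) that lay in, downstream and upstream of the placed Adora2a gene, in each LPS and vehicle library. The gene's 4 sites hold about 50% in the LPS libraries and under 22% in the vehicle libraries.

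Within 500 kb on each side of the window there were 50 other sites, of which 6 were called higher and 4 lower, with log2 folds from -0.77 to 1.27. Over all sites 16.1% were called higher and 13.5% lower. The site nearest to the start of Upb1, 9.69 kb before it, was lower, with 39.6 ± 5.34 in LPS and 56.5 ± 2.64 in vehicle (SD, n = 3 each; log2 fold -0.51, limma adjusted p = 0.0350). This call ended on the values as deposited (-0.45) and without any library but LPS replicate 1, at -0.55 to -0.40. The sites at the other neighbouring starts were not called. At the start of Specc1l, which encodes a cytoskeletal protein, the signal was 64.8 ± 14.9 in LPS and 77.6 ± 23.9 in vehicle (SD, n = 3 each; limma adjusted p = 0.391). At the start of Bcr, a signalling protein gene, it was 89.5 ± 4.42 in LPS and 80.8 ± 12.0 in vehicle (limma adjusted p = 0.496). A single site at the paired starts of Gucd1 and Snrpd3 had 113 ± 25.5 in LPS and 129 ± 51.9 in vehicle (limma adjusted p = 0.733).

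At the lower edge of the window, site 1 just inside had a log2 fold of 0.49 and the next site outside 0.21. At the upper edge, site 15 just inside had 0.03 and the next site outside, the one near Upb1, -0.51. The window is dense in sites. Among 24708 tiles of 110 kb that cover the genome, 2.15% held 15 sites or more. Of the 11142 tiles with any site, 4.77% held as many, and the median number over these tiles was 4.

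In the authors' deposited table, 5 of the 15 sites had an FDR under 0.05, all with a higher signal in LPS, as 4.01% of all sites had. They were sites 8, 10, 11, 12 and 14, with deposited log2 folds of 2.17, 1.45, 3.17, 1.50 and 0.96. On the deposited values without median scaling, limma called 4 of the 15 higher, against 1.89% of all sites called higher and 0.0482% called lower. Sites 9, 13 and 14 were the ones no longer called, with log2 folds of 1.70, 0.77 and 1.39. At an adjusted p under 0.01 on scaled values, 6 of the 15 were higher, against 11.1% of all sites. The number called was 7 with quantile normalisation, a pseudocount of 0.5 or 5, a mean of at least 20, or limma without its trend and robust options, where 14.8%, 16.1%, 16.2%, 16.1% and 15.3% of all sites were higher.

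Other sites with a profile like that of site 11 were looked for over the whole table, by the Euclidean distance between log2(scaled value + 1) profiles over the 6 libraries. The 8 closest, at 1 per gene, had distances of 0.904 to 1.24, Pearson correlations of 0.973 to 0.991 over the 6 libraries, which fall into the same LPS and vehicle groups, and log2 folds of 2.71 to 3.02. At the measured offset their nearest starts were those of Tspan3, Lcn2, Fam227b, Batf, Shisa3, St3gal3, Tax1bp1 and Gpd2. The Lcn2 site, 0.26 kb before the start of this gene for lipocalin 2, a protein that binds bacterial siderophores, had a mean of 118 in LPS and 14.0 in vehicle. The Batf site lay 20.1 kb before the start of that AP-1 family transcription factor gene and had 114 in LPS and 14.4 in vehicle. The other sites lay 22.7 to 116 kb from the nearest start.

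The other adenosine receptor genes lie on other chromosomes and were taken as the rest of the family. Adora2b encodes the other receptor that couples to the stimulatory G protein, and Adora1 and Adora3 encode receptors coupled to the inhibitory G protein. Adora2b had 8 sites within 50 kb of its start, of which 1 was called higher, against 16.1% of all sites. The called site, at chr11:62151916-62152916, lies 12.6 kb into a gene of 17.5 kb. It had 86.2, 98.5 and 83.5 in the LPS libraries, against 17.8, 26.6 and 15.0 in the vehicle libraries, with no overlap. The log2 fold was 2.15 with SE 0.21 (limma adjusted p = 9.66e-10), and the call held without each single library and on the deposited values (2.21, limma adjusted p = 0.000337). The site at the Adora2b start, 0.48 kb in, had 102, 100 and 91.9 in LPS, against 72.6, 94.0 and 108 in vehicle. Those values overlapped (log2 fold 0.12, SE 0.16, limma adjusted p = 0.619). Whether the folds at these 2 sites differ from those at Adora2a was not tested.

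Adora3 had 14 sites within 50 kb, 1 called higher and 1 lower, against 16.1% and 13.5% of all sites. The higher site lay 6.24 kb past the start, beyond the gene's 4.51 kb, with 89.8 ± 13.5 in LPS and 51.0 ± 11.5 in vehicle (SD, n = 3 each; log2 fold 0.82, SE 0.18, limma adjusted p = 0.000714). The site at its start had 66.3 ± 13.5 in LPS and 70.2 ± 8.66 in vehicle (SD, n = 3 each; limma adjusted p = 0.727). The lower site lay 26.4 kb before the start, nearer to that of Tmigd3, with a log2 fold of -0.58 (limma adjusted p = 0.00174). Adora1 had 3 sites, and the 1 called higher (1.20, SE 0.24, limma adjusted p = 0.000279) lay 46.1 kb from its start and nearer to that of Mybph. The site 14.3 kb into Adora1 had 29.6 ± 5.04 in LPS and 23.0 ± 1.50 in vehicle (limma adjusted p = 0.363). The higher calls at Adora1 and Adora3 were not made on the values as deposited, with log2 folds of 1.27 and 0.88 (limma adjusted p = 0.149 and 0.543), nor was the lower call at Adora3 (-0.52).

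**Figure D4:**
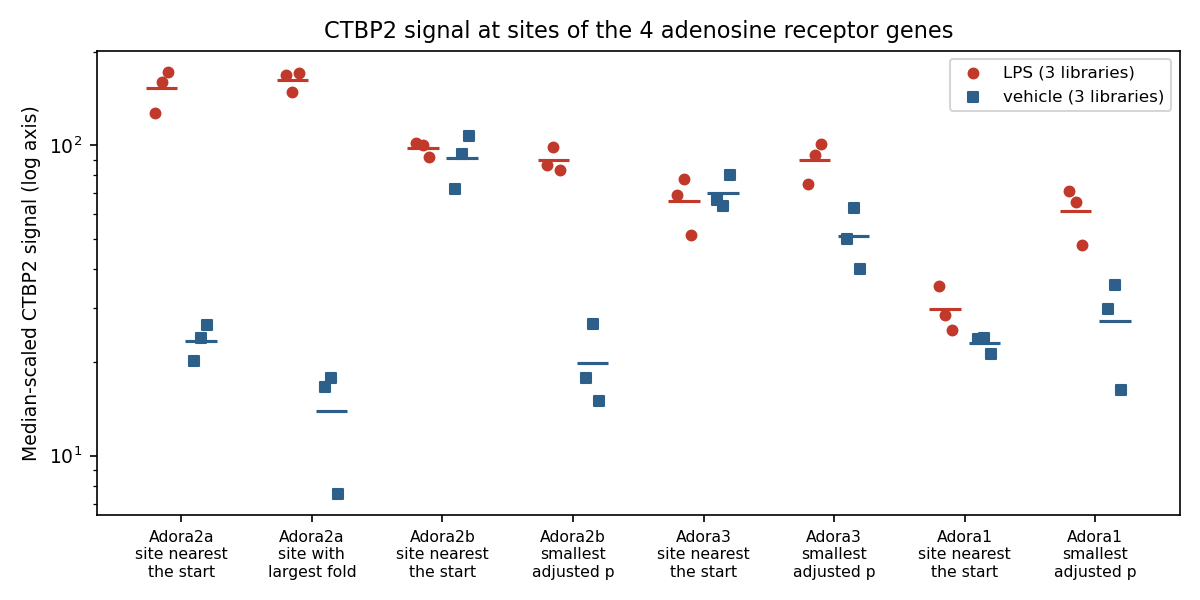
Median-scaled CTBP2 signal (log axis) at sites of the 4 adenosine receptor genes, with 3 LPS libraries as circles left of 3 vehicle libraries as squares and group means as lines. The site nearest each start is followed by the site of smallest adjusted p within 50 kb, or for Adora2a by the site of largest fold, and at Adora2b and Adora3 the start site overlaps between groups.

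The promoters of Adora2b and Adora3 are shown because the sites at these starts carried CTBP2 signal of like level in both groups, while a site further along was higher in LPS. They are the 250 bases before and 50 bases after the start, from RefSeq on GRCm38.p6, at chr11:62248734-62249033 and chr3:105904171-105904470, both on the plus strand. The promoter of Adora2a is not printed. Capitals mark matches on either strand to the motifs searched.
Adora2b: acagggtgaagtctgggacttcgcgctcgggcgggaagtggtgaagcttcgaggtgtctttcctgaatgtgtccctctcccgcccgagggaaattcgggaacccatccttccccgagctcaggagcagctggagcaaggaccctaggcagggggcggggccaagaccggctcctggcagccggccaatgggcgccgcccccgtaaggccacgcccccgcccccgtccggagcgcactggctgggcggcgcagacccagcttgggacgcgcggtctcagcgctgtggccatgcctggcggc
Adora3: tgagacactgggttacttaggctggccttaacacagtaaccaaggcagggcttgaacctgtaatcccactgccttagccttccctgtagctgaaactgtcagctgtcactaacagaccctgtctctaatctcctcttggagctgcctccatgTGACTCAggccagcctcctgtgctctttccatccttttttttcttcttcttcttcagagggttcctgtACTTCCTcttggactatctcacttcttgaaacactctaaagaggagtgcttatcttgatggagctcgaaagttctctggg
The motifs were AP-1 (TGANTCA), PU.1 (AGGAAGT), kappa-B in both of its common forms, C/EBP (TTGCNNCAA and TTGCNNAA), CRE (TGACGTCA), STAT (TTCNNNGAA), an interferon-stimulated response element and the ZEB E-box (CACCTG). The Adora3 window held an AP-1 match 98 bases before the start and a PU.1 match 30 bases before it, which do not overlap. Of 32851 promoters of the same length, 7.81% held the AP-1 letters and 9.35% the PU.1 letters. In the Adora2b window none of these letters was found.

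Across the adenosine pathway, a list of 28 genes, 27 had a site within 50 kb of the start, all but Pde4b. Of these, 12 had a site called higher and 18 a site called lower, and 8 had both. Over all placed genes with a site, 45% had a higher and 41.5% a lower one. Of the 213 sites of the list, 27 were called higher and 29 lower, against 16.1% and 13.5% of all sites. Their median log2 fold was -0.06, against -0.02 over all sites. Adora2a, which was chosen from this contrast, gave 15 of the 213 sites and 7 of the 27 higher ones. It is part of every count over this list, so nothing is read from those counts. Within 10 kb of the start, 6 of 22 genes had a higher site (Adora2a, Adora3, Pnp, Slc29a1, Creb1 and Crtc2) and 2 a lower one (Adcy9 and Crtc3), against 19.7% and 14.9% of all placed genes. Of these, the Crtc2 higher site lay nearer to the start of Slc39a1. On the values as deposited 3 genes had a higher site, Adora2a, Adora2b and Slc29a1, and 0 a lower one (limma, adjusted p under 0.05). Of all sites, 1.89% were higher and 0.0482% lower on those values, and the share over all placed genes was not determined.

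Among genes that make adenosine, the site of smallest adjusted p was lower at Entpd1, which encodes the enzyme degrading ATP, with a log2 fold of -0.70 (limma adjusted p = 0.00850). This site lay 37.9 kb past the Entpd1 start, and the site at the start was not called (-0.48, limma adjusted p = 0.0598). Alpl, a phosphatase gene, had a lower site 22.1 kb before its start (-0.84, limma adjusted p = 0.000634) and a higher one nearer, 11.2 kb before it (0.58, limma adjusted p = 0.0115). The higher call ended without LPS replicate 2 (0.50) or vehicle replicate 2 (0.48). Nt5e, encoding the enzyme that converts AMP to adenosine, had 2 sites and neither was called. Within 50 kb of the start, all 6 genes of adenosine removal and uptake had a lower site and 4 of them a higher one too, against 41.5% and 45% of all placed genes with a site. A gene is counted when any of its sites is called, whatever their number. Ada, Adk, Pnp, Slc29a1, Slc29a2 and Dpp4 had 8, 9, 11, 19, 14 and 3 sites. Of these, 2, 1, 1, 1, 4 and 1 were lower, against 13.5% of all sites. Higher ones numbered 0, 0, 1, 8, 1 and 1, against 16.1% of all sites. Within 10 kb, 0 of the 6 had a lower site and 2 a higher one, Pnp and Slc29a1. The shares of all placed genes with a site within 10 kb were 14.9% and 19.7%. The smallest adjusted p among these higher and lower sites was at Slc29a1, which encodes a nucleoside transporter. A site 17.1 kb before its start had 67.0, 79.8 and 86.3 in the LPS libraries, against 33.3, 22.2 and 23.8 in the vehicle libraries, without overlap. This is a log2 fold of 1.54 with SE 0.20 (limma adjusted p = 2.88e-07), and on the deposited values 1.59 (limma adjusted p = 0.0285). The site at the Slc29a1 start was not called (0.38, limma adjusted p = 0.244). At Ada, the adenosine deaminase gene, a site 36.8 kb past the start was lower, with 71.6 ± 2.73 in LPS and 104 ± 7.69 in vehicle (SD, n = 3 each; log2 fold -0.53, limma adjusted p = 0.00854). The site nearest to the Ada start was not called (-0.44, limma adjusted p = 0.127).

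Downstream of the receptors, 9 of 13 cyclic AMP genes with a site within 50 kb had a lower one and 3 a higher one, against 41.5% and 45% of all placed genes with a site. These counts too rise with the sites per gene. Lower were 3 of 14 sites at Adcy7 (Adcy9 is given below). At Prkar1a, Creb1, Atf1, Crtc3, Pde4d, Rapgef3 and Rapgef4 it was 1 of 7, 5, 11, 10, 2, 7 and 3 sites. Gnas, Prkaca, Crem and Crtc2 had 0 lower among 2, 9, 2 and 13 sites. Higher sites numbered 2 at Creb1, 1 at Crtc2 and 2 at Crtc3. Of all sites, 13.5% were lower and 16.1% higher. Within 10 kb, 2 of 10 had a lower and 2 a higher one, against 14.9% and 19.7% of all placed genes with a site. The adenylyl cyclase genes Adcy9 and Adcy7 make cyclic AMP. At a site 21.9 kb into Adcy7 the signal was 52.1 ± 7.41 in LPS and 105 ± 13.1 in vehicle (SD, n = 3 each; limma adjusted p = 2.08e-05). The site nearest to the Adcy7 start was not called (log2 fold -0.33, limma adjusted p = 0.0857). At a site 27.5 kb before the Adcy9 start the log2 fold was -1.18 (limma adjusted p = 8.01e-07). There the signal was 53.0 ± 3.85 in LPS and 122 ± 17.5 in vehicle (SD, n = 3 each). Of the 11 sites of Adcy9, 5 were lower, against 13.5% of all sites. Creb1, the gene of a transcription factor activated by cyclic AMP signalling, had a site 32.1 kb before its start that was higher, at 1.07 (limma adjusted p = 0.000659). Its start site was also higher, with 167 ± 10.6 in LPS and 108 ± 25.6 in vehicle (log2 fold 0.64, limma adjusted p = 0.00173). Of the 5 sites of Creb1, 2 were higher and 1 lower, against 16.1% and 13.5% of all sites. Atf1, a related factor gene, had a lower site 40.7 kb before its start (-0.80, limma adjusted p = 0.000723), while the site at the start was not called (-0.03, limma adjusted p = 0.927). Sites of smallest adjusted p within 50 kb of Slc29a2 (-1.07), Dpp4 (0.83) and Rapgef3 (-1.01) passed too but lay nearer to the starts of Npas4, Gcg and Hdac7. The called Crtc2 site (0.50) likewise lay 5.10 kb before the Crtc2 start and nearer to that of Slc39a1.

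Of the 22 pathway genes whose site of smallest adjusted p was called, 14 kept the call without each single library and 8 did not. Those 8 calls ended at Entpd1 without LPS replicate 2 (log2 fold -0.50), at Pnp without LPS replicate 3 (0.58) or vehicle replicate 1 (0.56), and at Crtc2 without vehicle replicate 1 (0.41). They ended at Crtc3 without vehicle replicate 2 (-0.73) or 3 (-0.68). At Pde4d they ended without LPS replicate 1 (-0.42) or vehicle replicate 2 (-0.48) or 3 (-0.47), and at Prkar1a without LPS replicate 1 (-0.43) or 2 (-0.52) or vehicle replicate 3 (-0.37). The Adk call ended without any library but LPS replicate 1, at log2 folds of -0.48 to -0.29. The Rapgef4 call ended without any library but LPS replicate 3 or vehicle replicate 2, at -0.46 to -0.30. Gnas, Prkaca, Crem and Enpp1 had no called site.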

How the data were processed

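CTBP2 signal was measured in 3 LPS and 3 vehicle libraries. The submitters' processing notes name BWA 0.7.17, MACS3 3.0.0a5, DiffBind 3.16 and R 4.4.1, with no roles. They also name Picard 3.2.0 and SAMtools 1.9, deepTools 3.5.1, FastQC and bedtools, and the builds mm39, GRCm39 and mm10 with no step. Per the file headers, the deposited table holds a normalised signal per site and library, log2 concentrations, a log2 fold and p-values with an FDR. How the authors set the normalisation, and whether they pooled reads before calling peaks, is not stated in the labels. Up to 300 reads, 100% of the values in each library lay within 0.1 read of a multiple of the library's smallest step.

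Each column was scaled by its median to a common level. Sites were tested in R 4.3.3 with limma 3.58.1 (options trend and robust) on log2(value + 1) over all 62236 sites, with no covariates and Benjamini-Hochberg adjustment. Folds on this scale understate changes at low sites. The test was checked on simulated data. Tables were handled with pandas 2.3.3 in Python 3.11.15.

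Gene starts of the table (8393 genes, on GRCm38 positions) were placed on the site coordinates by an offset per stretch of chromosome, found by dynamic programming (step 250 bp, largest shift 1 Mb, penalty 12, assumed share 0.35, at least 5 hits per stretch). With every other gene held out, 69.6% of 4189 starts had a site within 500 bp, against 9.67% with no offset. RefSeq GRCm38.p6 genes with a known strand were then placed, 18173 of 18934. A placed start is approximate, and no shifted coordinate is given.

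Named were all sites of the window, the 8 most like site 11, and pathway genes with a called site. The members, the gene lists and most tests were chosen with earlier results of these data known.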

Additional observations from a re-analysis of the deposited data

How the results depend on the processing

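The main dependence was on the scaling. On values as deposited, 1178 sites were higher and 30 lower over the table, 4 of the 15 window sites were higher, and 3 pathway genes had a higher and 0 a lower site. Leaving out each library in turn gave 7691 to 10083 higher and 6031 to 7914 lower sites over the table. In the window it gave 5 to 7 higher and 0 lower sites. Pathway genes with a higher site then numbered 11 to 12 and those with a lower one 11 to 15. At an adjusted p under 0.01, 4699 sites were lower over the table, and 6 window sites were higher. Within 10 kb, 6 pathway genes had a higher and 2 a lower site, against 19.7% and 14.9% of all placed genes with a site. Log2 folds at sites 8, 10 and 11 were 2.47 to 2.78, 1.66 to 1.78 and 3.16 to 3.74 over 13 alternative settings. Quantile normalisation, pseudocounts of 0.5 and 5, a mean of at least 20, and limma without the trend and robust options left the 7 window calls in number. With the replicate block, window calls numbered 7, 11691 sites were higher and 10397 lower over the table, and pathway genes 14 with a higher and 19 with a lower site. Shares over all placed genes were determined only for the scaled fit with all libraries and no covariates, so pathway gene counts of other fits stand without them. The labels do not say that a replicate number marks a shared source, and deviations of same-numbered libraries correlated at 0.111, 0.0384 and 0.214, so the numbers were not taken as pairs. Reads are inferred from the step between values, and a check that starts from each column's smallest value did not accept this for most columns, so the planned count model was not run. Depth limits the low vehicle levels, which rest on 6 to 20 reads at site 11 and 4 to 17 at site 9.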

Other observations

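Sites 11 and 14, which lie 10.5 kb apart, had the same reads in every vehicle library, 14, 20 and 6 in vehicle replicates 1, 2 and 3. Of all 62236 sites, 4 had these counts. In LPS replicates 1, 2 and 3 the same sites had 149, 167 and 183 reads at site 11 and 17, 48 and 52 at site 14.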
